A study of Mus musculus with 3 samples.

Results

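The genes described here are Btg2, Tob1, Dusp1, Jund, Ier5 and Klf6, 6 mouse genes of stimulus response and growth restraint. They were selected on the data themselves: each had a peak of PHF10, a subunit of the chromatin remodelling complex PBAF, within 1000 bp of an annotated transcription start site (TSS). From the genes that passed they were then picked by kind. They belong to 397 genes that met this criterion among 55450 annotated genes, a background of 0.716%. Among protein-coding genes, the class to which all 6 belong, the background was 308 of 21951, or 1.4%. Since the folds, p values and q values below come from the peaks that chose the genes, they are given as a description and without a test.

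PHF10 was mapped by chromatin immunoprecipitation and sequencing (ChIP-seq) in adult mice of the strain given as C57BL/6 in the labels and C57BL/6J in the paper's methods, at postnatal day 120 (P120). There were 2 PHF10 libraries, given as biological replicates, and 1 control library, which entered through the enrichment values only. The labels call the control pre-immune, and the paper's methods name both control rabbit IgG and a pre-immune control. It is called IgG here. The sample labels name the whole brain at P120, whereas the text deposited with the series names cerebellum at a younger age, and the names of the peaks carry the letters Cer. The paper's methods, like the labels, name whole brain at P120. The antibody recognises all isoforms of PHF10, so the peaks alone do not separate them. By Western blot the paper found a single isoform, PHF10D, left at P120. The paper assigns the peaks to PHF10D in a PBAF variant without the BRD7 subunit, named dcPBAF. From published expression data it reports high PHF10 transcript levels in neurons and none detected in non-neuronal cells. Isoform and cell type were not tested here. The chromatin came from all cells of the tissue. A larger share of occupied cells and a higher occupancy per cell can therefore not be told apart.

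BTG and TOB proteins restrain proliferation, in part by recruiting the deadenylase that shortens the poly(A) tails of mRNAs. Dusp1, Ier5 and Klf6 belong to the genes whose transcription answers growth factors, stress or neuronal activity, and Jund was listed with them here. Dusp1 encodes a phosphatase that switches off MAP kinases, Jund a member of the AP-1 family of transcription factors, Ier5 an immediate early protein linked to the heat shock response, and Klf6 a zinc finger factor that binds GC-rich DNA. Genes of this class are often short, and their promoters respond through elements such as the cAMP response element (CRE), to which CREB binds, the CArG box, to which serum response factor binds, and AP-1 sites. PBAF moves nucleosomes at promoters and is known for a role at interferon-inducible genes.

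The sequences next to the sites are shown because they carry the CRE and the other short promoter motifs to which the results return. All are from the mm10 reference of RefSeq (GRCm38.p6) on the strand of the gene, with motif matches on either strand in capitals. The motifs searched were the CRE TGACGTCA, its half-site TGACG, the GC box GGGCGG, the CCAAT box CCAAT, the TATA motif TATAA, the AP-1 site TGANTCA, and the CArG box and NRF1 motif by name. For Btg2, Tob1, Dusp1 and Ier5 the stretch is the 180 bases that end just before the outermost annotated 5′ end of the transcripts at the site, for Jund the 30 bases around the CRE, and for Klf6 the whole site. The positions are chr1:134079156-134079335, minus strand, for Btg2; chr11:94211274-94211453, plus strand, for Tob1; chr17:26508520-26508699, minus strand, for Dusp1; chr8:70698724-70698753, plus strand, for Jund; chr1:155099637-155099816, minus strand, for Ier5, and chr13:5861042-5861241, plus strand, for Klf6.
Btg2: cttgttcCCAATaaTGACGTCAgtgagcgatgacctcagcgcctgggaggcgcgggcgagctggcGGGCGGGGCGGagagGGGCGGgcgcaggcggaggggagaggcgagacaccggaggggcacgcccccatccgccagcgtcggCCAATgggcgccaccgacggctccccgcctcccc
Tob1: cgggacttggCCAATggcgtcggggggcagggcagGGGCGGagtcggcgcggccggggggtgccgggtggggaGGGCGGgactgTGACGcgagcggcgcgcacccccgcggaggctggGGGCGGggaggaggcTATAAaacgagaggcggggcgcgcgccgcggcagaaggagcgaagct
Dusp1: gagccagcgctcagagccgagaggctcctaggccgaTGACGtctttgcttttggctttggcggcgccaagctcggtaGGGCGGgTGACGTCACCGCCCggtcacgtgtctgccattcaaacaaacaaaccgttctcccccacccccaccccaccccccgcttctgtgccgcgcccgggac
Jund: ccccacccccaTGACGTCAacccacaatgc
Ier5: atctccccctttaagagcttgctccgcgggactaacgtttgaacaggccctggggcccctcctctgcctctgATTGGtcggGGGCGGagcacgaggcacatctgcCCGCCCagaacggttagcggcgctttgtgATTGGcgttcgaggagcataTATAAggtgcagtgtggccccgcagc
Klf6: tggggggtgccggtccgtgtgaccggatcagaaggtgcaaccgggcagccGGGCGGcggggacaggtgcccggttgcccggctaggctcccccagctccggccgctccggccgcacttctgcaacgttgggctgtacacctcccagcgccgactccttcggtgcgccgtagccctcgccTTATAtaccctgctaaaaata

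PHF10 occupied 4 of the 6 gene starts in both replicates (66.7%), those of Btg2, Tob1, Jund and Ier5, while Dusp1 was called in replicate 2 alone and Klf6 in replicate 1 alone. Across the annotation, 116 of 55450 genes had a site called in both replicates near a TSS (0.209%). Of all 303 sites, formed by merging the peaks of the replicates, 89 were called in both (29.4%). Replicate 1 held 251 peaks with a median fold of 5.85 over IgG, and replicate 2 held 141 peaks with a median fold of 6.18. To make the fold of a peak, its summit fragments are scaled to the depth of IgG, 1 is added, and the sum is divided by the IgG background plus 1. Fold and p value fix a whole number of fragments at the summit, and this number was recovered for all peaks. The median peak rested on 22 fragments in replicate 1 and 20 in replicate 2, so that the folds are coarse, and the intervals below are exact Poisson 95% intervals that cover the counting error of the PHF10 library only.

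Of the 2 antiproliferative genes, Tob1 stood out by its enrichment. Tob1 (ENSMUSG00000037573.5) lies on the plus strand of chromosome 11, and its site spanned chr11:94211319-94211677, or 359 bp around the TSS at 94211454, with 135 bp upstream and 224 bp in the 5′ untranslated region (UTR). Replicate 1 gave a fold of 7.71 and replicate 2 of 13.5, with a mean of 10.6 ± 4.12 (SD, n = 2). Behind these folds were 29 fragments (19.4 to 41.6) in replicate 1 and 43 fragments (31.1 to 57.9) in replicate 2, against an IgG background of 1.85 in both. The −log10 p of the peak caller was 14.9 and 35.3, and −log10 q was 8.99 and 27.6. By fold the peak ranked 1 of 141 in replicate 2 and 28 of 251 in replicate 1, and by its mean fold the site ranked 5 of 303.

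The 2 libraries gave different values at Tob1. After scaling to library depth, replicate 2 held 1.79 times the fragments of replicate 1 (exact 95% interval, 1.09 to 2.98). Over the 89 sites called in both replicates this ratio had a median of 0.976, and 5% to 95% of sites lay between 0.752 and 1.43. None of the 89 sites had a higher ratio than Tob1, and the lowest ratio was 0.560. The interval is for this site alone and takes no account of its being the highest of the 89. The summits lay 19 bp and 81 bp downstream of the TSS.

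Btg2, a target of p53 and an early response gene, had a smaller and steadier enrichment. The gene (ENSMUSG00000020423.6) lies on the minus strand of chromosome 1, and its site spanned chr1:134078932-134079184, which is 253 bp. Its folds were 6.12 (replicate 1) and 6.74 (replicate 2), with a mean of 6.43 ± 0.44 (SD, n = 2). These folds rested on 24 fragments (15.4 to 35.7) and 22 fragments (13.8 to 33.3) over an IgG background of 2. The −log10 p was 11.2 and 13.2, and −log10 q was 5.74 and 7.49. Both values lay just above the medians of their libraries, and the scaled replicate ratio of 1.11 (0.592 to 2.06) showed no difference beyond counting error.

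The Btg2 site covered the start of the coding sequence. Of its 253 bp, 64 bp lay upstream of the TSS at 134079120, 67 bp in the 5′ UTR and 122 bp in coding sequence of the first exon. The summits were 49 bp and 41 bp downstream of the TSS, 8 bp apart, and both fell in the 5′ UTR. RefSeq places the 5′ end 35 bp further upstream, at 134079155.

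The other genes of the BTG/TOB family were read for comparison. Including Btg2 and Tob1, 4 of the 6 genes had a peak near a TSS, and 3 had one in both replicates, against 0.209% of all annotated genes for both replicates. That share counts non-coding genes as well, and it was not computed for protein-coding genes alone. Leaving out Btg2 and Tob1, which were selected for their peaks, the count was 2 of 4, against 1.4% of all protein-coding genes. The family was chosen for comparison with these results known, so the count is a description and was not tested. Btg1, the closest relative of Btg2, had folds of 6.60 in replicate 1 and 8.78 in replicate 2, with summits 78 bp and 49 bp downstream of the TSS. Tob2, the closest relative of Tob1, had a peak in replicate 2 alone, with a fold of 5.06 and a summit 51 bp upstream of the TSS. No peak was listed within 1000 bp of a TSS of Btg3 or Btg4.

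Jund and Ier5, genes that are each made of 1 exon, both carried a site in both replicates. Jund (ENSMUSG00000071076.6), on the plus strand of chromosome 8, had the widest of the 6 sites, chr8:70698797-70699167, at 371 bp. Its folds were 6.58 (replicate 1) and 5.44 (replicate 2), and their mean of 6.01 ± 0.80 (SD, n = 2) was the lowest of the 6 genes. The fragments gave another picture, with 35 (24.4 to 48.7) in replicate 1 and 30 (20.2 to 42.8) in replicate 2. Scaled to the IgG library these were 25.3 and 26.2 fragments, second only to the Tob1 site by their mean among the 6. The IgG background at the Jund summits was 3 and 4, the highest of the 6 genes, and it is the divisor of the fold. Accordingly −log10 p was 15.5 and 13.5, and −log10 q was 9.55 and 7.74.

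The Jund summits lay on either side of the TSS at 70698949, 34 bp downstream in replicate 1 and 22 bp upstream in replicate 2. Of the 371 bp of the site, 152 bp lay upstream, 109 bp in the 5′ UTR and 110 bp in coding sequence. In RefSeq the 5′ end of Jund lies 1210 bp further upstream, and the summits are 1244 bp and 1188 bp downstream of it. From that start the nearest edge of the site is also more than 1000 bp away, so Jund would not have met the selection. Gm11175 is the one other annotated gene with a TSS within 1000 bp of a site of the 6 genes. It runs antisense to Jund, and ChIP-seq does not assign a peak to a strand.

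Ier5 (ENSMUSG00000056708.5), on the minus strand of chromosome 1, had a site at chr1:155099403-155099701, which is 299 bp. The site had a fold of 6.36 in replicate 1, of 6.74 in replicate 2 and of 6.55 ± 0.27 on average (SD, n = 2), and this was the smallest spread of the 4 genes with both replicates. The fragments were 25 (16.2 to 36.9) and 22 (13.8 to 33.3) over an IgG background of 2, with −log10 p of 12.2 and 13.2 and −log10 q of 6.64 and 7.49. In replicate 2 the values of Ier5 and Btg2 were identical, since both rested on the same number of fragments and the same background. The summits were 130 bp and 49 bp downstream of the TSS at 155099636, 81 bp apart, the widest gap among the 4 genes. The site held 65 bp of upstream sequence, 206 bp of the 5′ UTR and 28 bp of coding sequence.

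Dusp1 (ENSMUSG00000024190.7) was called in replicate 2 only. Its peak, chr17:26508346-26508545 on chromosome 17, was 200 bp wide, the length to which reads were extended. The fold was 6.18, equal to the median of the replicate, and rested on 19 fragments (11.4 to 29.7) over the background of 1.85. The −log10 p was 10.8 and −log10 q 5.27, both the lowest of the 10 peaks at the 6 genes. The summit lay 51 bp downstream of the TSS at 26508472, which RefSeq shares, and within the 5′ UTR. Of the 200 bp, 73 bp were upstream of that TSS and 127 bp were in the 5′ UTR of the transcript that starts there. The annotation gives Dusp1 6 TSSs, of which the most distant lies 53707 bp upstream of the summit and was not near a peak. The lists hold called peaks only, so the level of Dusp1 in replicate 1 below the calling threshold is not known.

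Among the 10 MAP kinase phosphatase genes, Dusp1 and Dusp5 had a peak near a TSS, which is 1 of the 9 that were not selected, against 1.4% of all protein-coding genes. This list too was chosen with these results known, and the count was not tested. Dusp5, an inducible nuclear phosphatase of ERK, was called in both replicates, with folds of 7.08 and 6.74 and summits 48 bp and 33 bp downstream of the TSS. Its fold in replicate 2 exceeded that of Dusp1, although both lie within the counting interval of the Dusp1 fold (3.86 to 9.45).

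Klf6 (ENSMUSG00000000078.7) differed from the other 5 genes in position. Its peak, in replicate 1 only, lay at chr13:5861042-5861241 on chromosome 13, entirely upstream of the gene and in intergenic sequence. The summit was 319 bp upstream of the first TSS at 5861482, and the near edge of the peak was 241 bp from it, so that Klf6 is the one gene of the 6 whose peak did not cover a TSS. The fold was 6.95, on 26 fragments (17.0 to 38.1) over the background of 1.85, with a −log10 p of 12.8 and a −log10 q of 7.12. This was the second highest fold of replicate 1 among the 6 genes, after Tob1. Within the 1000 bp that defined the selection, Klf6 was the farthest gene inside. Outside it, the nearest gene of the stimulus-response list was Per1, whose closest peak was 21538 bp from a TSS. Of the 17 KLF genes, Klf6 was the one with a peak, and 0 of the 16 others is near the background of 1.4% of protein-coding genes.

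**Figure D1:**
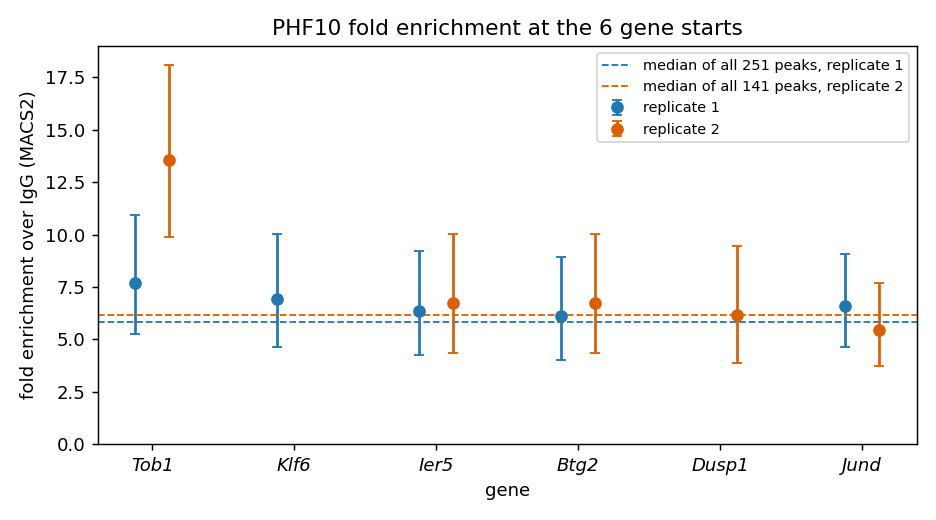
Fold enrichment of PHF10 over IgG (vertical axis, no unit) at the 6 gene starts, with replicate 1 in blue and replicate 2 in orange. Genes are ordered by mean fold, which for Klf6 and Dusp1 is the fold of 1 replicate. Bars are exact Poisson 95% intervals of the fragments at the summit, with the IgG background held fixed, and dashed lines mark the medians of all peaks, 5.85 and 6.18. Tob1 in replicate 2, at 13.5, stands above the other 9 peaks, which lie between 5.44 and 7.71.

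By mean fold the order of the genes was Tob1, Klf6, Ier5, Btg2, Dusp1 and Jund. Klf6 and Dusp1 entered with the fold of the 1 replicate in which they were called. Their level in the other replicate is not known, so their places are the least certain. The interval of Tob1 in replicate 2 (9.89 to 18.1) lay above the folds of the other 9 peaks but overlapped the intervals of Tob1 in replicate 1 (to 10.9), Btg2 and Ier5 in replicate 2 (to 10.0) and Klf6 (to 10.0). It did not overlap those of Dusp1 (to 9.45) and Jund (to 9.05 and 7.69). The intervals of the other 9 peaks all overlapped one another, so that most of the order is not resolved at this depth. Tob1 kept the first place in each replicate. With replicate 2 alone, 90.0% of the pairs of genes kept their order, and with replicate 1 alone 80.0%. In replicate 1 Jund moved to the third place, ahead of Ier5 and Btg2. By −log10 p, which rewards fragments over the background as well as the ratio, 73.3% of the pairs kept their order.

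**Figure D2:**
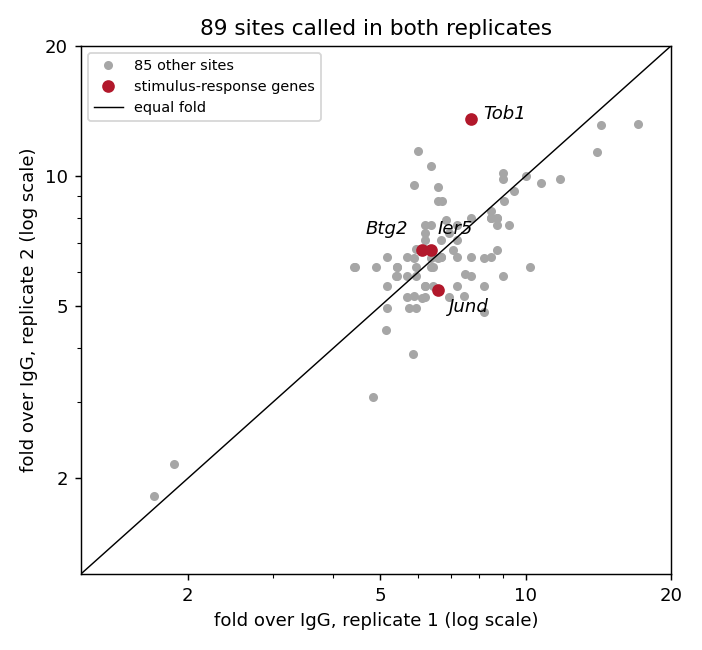
Fold over IgG in replicate 1 (horizontal, log scale) and replicate 2 (vertical, log scale) for the 89 sites called in both, with Btg2, Tob1, Jund and Ier5 in red and 85 other sites in grey. Tob1 lies above the line of equal fold at 7.71 and 13.5, and the other 3 genes lie close to it among the bulk of the sites.

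Compared with all sites, the 6 sites had a median of the mean fold of 6.49, against 5.68 over the 303 sites and 6.64 over the 89 sites called in both replicates. A site called in 1 replicate, as at Klf6 and Dusp1, entered with its fold in that replicate. Their median width was 276 bp, against 251 bp and 314 bp. Among sites called in both replicates, the closest match to a gene was measured as the Euclidean distance of the log2 folds over the 2 replicates. For Btg2 and for Ier5 it was the site at Zfp963 (folds of 6.19 and 6.79), at distances of 0.02 and 0.04. For Jund it was the site at Kmt5b (6.44 and 5.58), at a distance of 0.05. The closest match of Tob1 was the site at Nfia (5.99 and 11.4), at a much larger distance of 0.44. The match is by fold only, since the scaled fragment ratio of replicate 2 to replicate 1 was 1.15 at Nfia and 1.79 at Tob1.

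The summits of the 6 genes lay close to the start of transcription. Over their 10 peaks the median distance from summit to TSS was 49 bp, and 8 of 10 summits were within 100 bp (80.0%). Over all 388 peaks of the nuclear chromosomes the median was also 49 bp, with 70.1% within 100 bp. Of the 10 summits, 8 were downstream of the TSS in the 5′ UTR, and the exceptions were Klf6 and Jund in replicate 2.

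**Figure D3:**
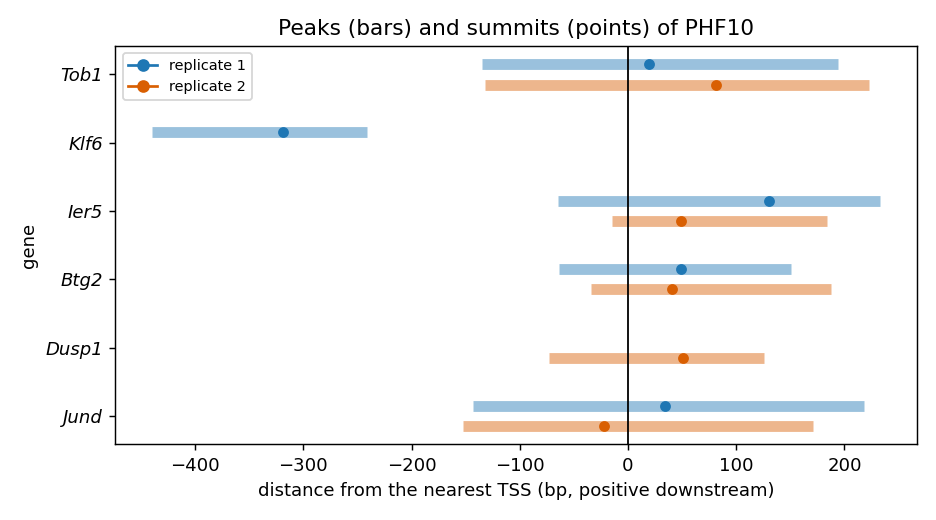
Extent (bars) and summit (points) of each PHF10 peak relative to the nearest TSS, in bp with positive values downstream, for replicate 1 (blue) and replicate 2 (orange). The peaks of 5 genes cross the TSS with summits from 22 bp upstream to 130 bp downstream, whereas the Klf6 peak ends 241 bp upstream.

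All 6 sites touched a CpG island, a stretch of at least 200 bp rich in CpG dinucleotides, and every summit lay inside the island. Islands were defined by a GC content of at least 50% and an observed to expected CpG ratio of at least 0.6. Among all 301 nuclear sites 91.7% touched an island, and of 54365 protein-coding TSSs 58.9% had an island within 100 bp, so that the 6 sites shared a property of nearly all PHF10 sites. The islands were 1084 bp long at Btg2, 1093 bp at Tob1, 1256 bp at Dusp1, 1776 bp at Jund, 1801 bp at Ier5 and 1182 bp at Klf6. They were thus 3 or more times as long as the sites in them. The GC content of the sites ranged from 58.5% at Ier5 to 78.0% at Tob1, with a median of 66.3%, close to the 66.9% over all sites and above the 58.6% of the 251 bp centred on protein-coding TSSs. The observed to expected CpG ratio was 0.848 at Btg2 to 1.06 at Dusp1.

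**Figure D4:**
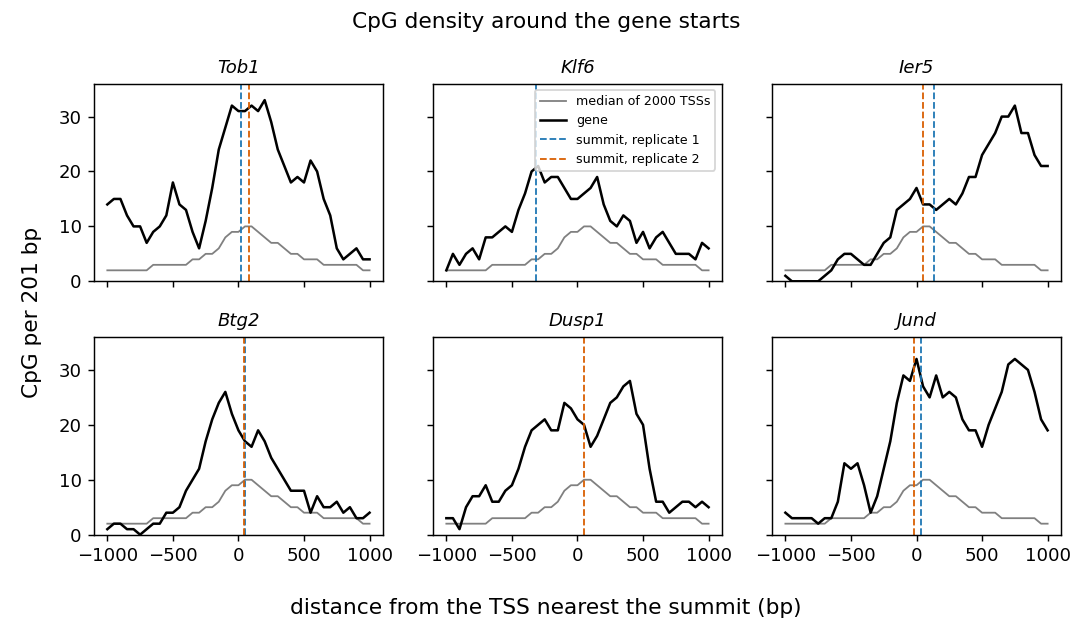
CpG dinucleotides per 201 bp (vertical axis) in steps of 50 bp from 1000 bp upstream to 1000 bp downstream of the TSS nearest the summit (horizontal axis, bp), for each gene (black) and as the median of 2000 protein-coding TSSs drawn at random (grey). Dashed lines mark the summits in replicate 1 (blue) and replicate 2 (orange). The density is near its maximum at the summits of Tob1, Jund and Klf6, and highest far downstream of them at Ier5, where it reaches 32 at 750 bp.

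The CpG density was not laid out alike around the summits. At Klf6 the maximum of 21 CpG per 201 bp lay 300 bp upstream of the TSS, next to the upstream summit, against 15 at the TSS. At Jund the maximum of 32 was reached at the TSS and again 750 bp downstream, and at Tob1 the maximum of 33 lay 200 bp downstream, with 31 at the TSS. At Ier5 the TSS had 17 and the maximum of 32 lay 750 bp downstream, within the single exon and outside the peak. At Btg2 the maximum of 26 lay 100 bp upstream of the TSS, with 19 at the TSS. At Dusp1 the maximum of 28 lay 400 bp downstream of the TSS, also outside the peak.

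Short promoter motifs were then read in the 300 bp from 250 bp upstream to 50 bp downstream of the TSS nearest the summit. The full CRE was present at 3 of the 6 genes, Btg2, Dusp1 and Jund, whereas 2.05% of 54365 protein-coding promoters of the same length held it, and 16 of the 296 other protein-coding genes with a peak on a nuclear chromosome and a coding TSS within 1000 bp of it (5.41%). The CRE began 201 bp upstream of the TSS at Btg2, 143 bp at Dusp1 and 214 bp at Jund. From the RefSeq 5′ end of Jund, 1210 bp further upstream, the Jund CRE would lie downstream of the start and outside the window, so its count here depends on the annotation. At all 3 genes it lay outside the PHF10 site, and none of the 6 sites contained a CRE. At Dusp1 it is flanked by GC boxes on both sides, as the sequence above shows. The half-site TGACG, which each full CRE also contains, was present at the same 3 genes and at Tob1. It was present at 23.3% of all promoters and at 44.3% of the promoters of the other genes with a peak. The half-site lay within 4 of the 6 sites, those of Btg2, Tob1, Jund and Ier5, against 39.5% of all sites.

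The GC box was present at all 6 genes, against 43.1% of all promoters and 72.3% of the promoters of the other genes with a peak. It lay within 4 of the 6 sites, those of Tob1, Dusp1, Jund and Klf6, against 60.1% of all sites. The CCAAT box was present at 5, all but Dusp1, against 35.9% and 34.8%, but lay within only 2 of the 6 sites, against 23.9% of all sites. The TATA motif was present at 3 genes, at 47 bp upstream of the TSS in Tob1, 41 bp in Jund and 26 bp in Ier5, against 20.8% and 21.6%. It lay within 4 of the 6 sites, those of Tob1, Jund, Ier5 and Klf6, against 18.3% of all sites. At Klf6 the match was outside the promoter window. No AP-1 site, CArG box or NRF1 motif was found in the 6 windows, where the shares of all promoters were 6.57%, 1.33% and 2.58%. A match of these letters is a description of the sequence and not evidence of a bound factor, and with 6 genes the counts are small. The 100 bp stretches of the 6 sites each occurred once in the reference chromosomes, so reads there could be placed uniquely.

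The 6 genes had short coding transcripts, and 4 of them were simple in structure, properties that the selection did not use. Dusp1 and Klf6 were the exceptions, with 4 exons each and with 6 and 3 annotated TSSs. All annotated transcripts of Dusp1 together span 56539 bp. The median length of the coding transcripts on the genome was 1668 bp for Jund, 2930 bp for Dusp1, 3276 bp for Ier5, 3951 bp for Btg2, 4042 bp for Tob1 and 8913 bp for Klf6. Their median was 3614 bp, and all 6 were under 10 kb. The 301 other protein-coding genes with a peak had a median of 15531 bp, with 34.2% under 10 kb, and all protein-coding genes had a median of 13872 bp, with 41.6% under 10 kb. Genes with 1 annotated TSS made up 4 of the 6, against 8.31% of the other genes with a peak and 22.1% of all protein-coding genes. RefSeq gives Tob1, one of these 4, a further start 1612 bp upstream. Those with at most 2 exons made up 4 of the 6, against 9.97% and 17.3%. As the genes were picked by their kind, and genes of this kind are short, these counts describe the 6 genes and were not tested.

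**Figure D5:**
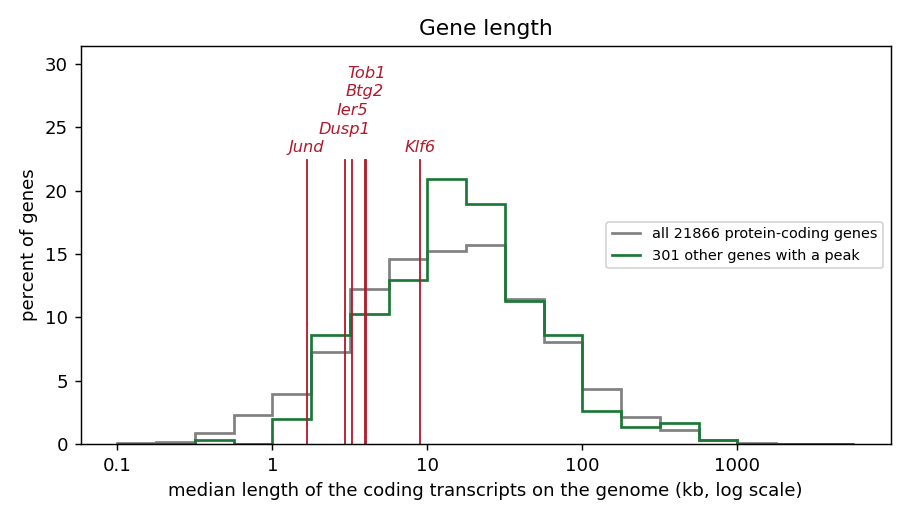
Percent of genes (vertical axis) by the median length of their coding transcripts on the genome (horizontal axis, kb, log scale), for all protein-coding genes (grey) and the 301 other genes with a PHF10 peak (green). Red lines mark the 6 genes, all of which lie below 10 kb, to the left of the green median of 15531 bp.

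Of 50 such genes on a list drawn up with these results known, 6 had a peak near a TSS, and they were the 6 genes described here, which the list contains because of their peaks. None of the other 44 had a peak within 1000 bp of a TSS in either replicate. This count is near the background of 1.4% of protein-coding genes. Among the 44 were Fos, Egr1, Arc, Npas4 and Nr4a1, the best known activity-induced genes of neurons. Bdnf was also among them, and its nearest listed peak was 4001582 bp from a TSS. The paper, by contrast, states from its ChIP-seq that PHF10D is on the promoter of mouse Bdnf. The reason for this difference was not tested. Btg1, Tob2 and Dusp5, which had peaks and belong to the families of Btg2, Tob1 and Dusp1, are not on the list. The count without a peak therefore depends on how the list was drawn and was not tested. Of the 12 FOS and JUN genes and their dimer partners, Jund alone had a peak, and 0 of the 11 genes that were not selected is near the same background of 1.4%. A peak that is not in the lists can be one below the threshold, and the absence of a call at these genes is limited by a depth at which the weakest peaks rested on 15 fragments in replicate 1 and 13 in replicate 2.

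Marker genes were read at the same distance from a TSS. Of 5 neuronal genes, Rbfox3 and Elavl3 had peaks in both replicates, and of 6 genes typical of cerebellum, Zic1 and Neurod1 did. The share of all annotated genes, coding and non-coding, with a site in both replicates was 0.209%. Snap25, Syt1 and Map2 of the neuronal list and Zic2, Cbln1, Gabra6 and Pcp2 of the cerebellar list had no peak near a TSS. The closest peak to Map2 was 6938056 bp away, whereas the paper states that PHF10D is on the mouse Map2 promoter. These lists were drawn up with earlier results known. None of 5 forebrain genes, 4 astrocyte genes, 4 oligodendrocyte genes and 4 microglia genes had a peak, which at a background of 1.4% of protein-coding genes says little about lists of this size. A peak at a promoter is not a measure of expression, and the origin of the 6 sites in cells or in brain regions was not tested.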

How the data were processed

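PHF10 occupancy was measured by ChIP-seq in brain chromatin (2 PHF10 libraries and 1 IgG library). From the paper's methods, the authors trimmed single-end reads with Cutadapt, aligned them to mm10 with Bowtie version 1, kept reads with 1 alignment, removed duplicates with Picard and ran MACS2 against IgG with reads extended to 200 bp, in each replicate separately. The deposited lists give per peak a score (10 times −log10 p, rounded down), the position of the summit, and the fold enrichment, a ratio to IgG with 1 added to both terms. The −log10 p and −log10 q values were also deposited by the authors. Read totals are not in the lists, so depth was derived relative to IgG from fold and p, as 1.38 for replicate 1 and 1.14 for replicate 2.

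TSSs were those of 141767 transcripts of GENCODE M21. Peaks that shared at least 1 bp were merged. Fragments were solved from fold and p, a step tested on simulated data (200 of 200 peaks recovered). CpG islands were searched for in the repeat-masked reference. Scripts ran in Python 3.11.15. Tables were handled in pandas 2.3.3 and numpy 2.4.6, Poisson values came from scipy 1.17.1, the genome was searched with numba 0.67.0 and plots were made in matplotlib 3.10.9. The genes, lists and motifs were chosen with earlier results of these data known, so no test was made. The named genes are the 6, the members of the lists with a peak, genes with a TSS near a site, and the closest match by fold. Fos, Egr1, Arc, Npas4, Nr4a1, Bdnf, Per1, Btg3 and Btg4 were named after their values were seen, as were the marker genes without a peak. Alternatives covered the window around the TSS, the part of a peak that counts, peak thresholds, each replicate left out, the definition of fold and order, and the definitions of islands and motif windows.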

Additional observations from a re-analysis of the deposited data

How the results depend on the processing

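The number of the 6 genes with a peak was 5 to 6 over windows of 200, 500 and 2000 bp, summits in place of peaks, coding TSSs only and stricter p and q thresholds, and Klf6 was lost with the window of 200 bp. It was 5 without replicate 1, which removed Klf6, and 5 without replicate 2, which removed Dusp1. The 4 genes with both replicates remained 4 under each of these settings except leaving out a replicate, and under other definitions of a shared peak. The annotation was not varied, and the Jund peaks lie more than 1000 bp from its RefSeq start. The median of the mean fold, 6.49, was 6.58 to 6.74 with a replicate left out. It was 9.24 as a plain ratio without the added 1, and 18.7 when given as scaled fragments, which is another quantity. All 6 sites touched an island under each definition. Pairs of genes and motifs numbered 21 in the promoter window, 14 around the summits and 14 in the sites. The CRE, at 3 genes in the promoter window, was at 0 in the others. The CCAAT box was at 5, 3 and 2 genes, and the GC box at 6, 4 and 4. No paired analysis was possible because only 1 group, PHF10, had numbered replicates with a list. With 19 to 43 fragments behind each peak, most intervals of the folds overlapped, so most of the order of the genes is not resolved.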
